A study of Homo sapiens with 9 samples.

Results

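The 9 genes described here encode proteins of innate defence and of the acute phase response: LCN2, SLPI, PI3, SAA1, SAA2, WFDC2, LTF, PIGR and BPIFB1. All encode secreted proteins except PIGR, which encodes a receptor. They were chosen by symbol from the 62666 genes of the deposited tables, without regard to a threshold on their values. Earlier results of these data were known when they were chosen, and all 9 symbols were found. Polyadenylated RNA was sequenced from MCF10A, MCF10AT1 and MCF10Ca1a, 3 human mammary epithelial lines with 3 libraries each. The series was designed to follow gene expression over breast cancer progression.

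MCF10A is an immortalised, non-tumorigenic line. As background that the labels do not give, MCF10AT1 is its derivative carrying an activated HRAS gene, and MCF10Ca1a is a malignant line obtained from tumours that such cells formed in mice. Each stage is thus represented by a single line, and a difference between lines cannot be told apart from a difference between these particular isolates. All 3 lines grew in DMEM/F12 medium with bicarbonate, glutamine, insulin at 10 µg/mL, epidermal growth factor at 20 ng/mL, hydrocortisone at 500 ng/mL and cholera toxin at 100 ng/mL. Horse serum was at 5% for MCF10A and MCF10Ca1a but at 2.5% for MCF10AT1, so every value of MCF10AT1 carries a serum difference that cannot be told apart from the line.

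Epithelia release the secreted proteins of this group onto mucosal surfaces and, in the mammary gland, into milk. Lipocalin 2, the product of LCN2, binds bacterial siderophores and so withholds iron, and lactoferrin, the product of LTF, binds iron directly. SLPI and elafin, the product of PI3, are small WAP-domain inhibitors of neutrophil serine proteases, and WFDC2 (also called HE4) carries the same kind of domain. SAA1 and SAA2 are near-identical serum amyloid A apolipoproteins that interleukin 1 and interleukin 6 induce in liver and in many epithelia. PIGR is the receptor that carries polymeric immunoglobulins across the epithelium, and BPIFB1 is a secreted member of the BPI-fold family known from the airways.

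Library depth ran from 62.9 to 69.5 M counts for MCF10A and MCF10AT1 but from 32.9 to 35.2 M for MCF10Ca1a. Of the 8 epithelial markers examined, 7 reached a mean TPM of 1 (a level corrected for transcript length and library size) in MCF10A, 7 in MCF10AT1 and 8 in MCF10Ca1a. The summed TPM of 8 neutrophil and leukocyte markers was 8.74 to 13.4 in MCF10A, 2.78 to 2.97 in MCF10AT1 and 30.4 to 33.4 in MCF10Ca1a. CD68 was the only one of them to reach 1 TPM (10.8, 2.66 and 31.1), while CD3E was at 0 in all 3 lines, ELANE was at 0 in MCF10A and MCF10Ca1a, and PTPRC had at most 2 counts in any library. Hepatocyte markers summed to at most 0.987 TPM, with TTR at 0 in all 3 lines. The 6 fibroblast markers summed to 6.39 to 7.18 TPM in MCF10A, 27.6 to 31.5 in MCF10AT1 and 1.89 to 2.29 in MCF10Ca1a. DCN (3.61, 27.9 and 0.329 TPM) and COL1A1 (3.06, 0.961 and 1.79) made up most of this, and COL1A2 was at 0 in MCF10AT1 and MCF10Ca1a. The 5 endothelial markers summed to 0.757 to 0.988, 0.934 to 1.36 and 15.7 to 20.8 TPM, nearly all PECAM1 in MCF10Ca1a (18.7), where KDR was at 0.0023 and CDH5 at 0. The part of these markers in the results was not tested.

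The SAA genes are shown first as sequences because their likeness limits how their reads can be divided. SAA1 (chr11:18266174-18269977, plus strand) and SAA2 (chr11:18239223-18248643, minus strand) lie 17.5 kb apart on GRCh38 in GENCODE 29. The last 150 coding bases before the stop codon are printed from the GENCODE 29 transcripts SAA1-201 and SAA2-201 (bases 217 to 366 of the coding sequence), with capitals at the 10 bases that differ there.
SAA1-201: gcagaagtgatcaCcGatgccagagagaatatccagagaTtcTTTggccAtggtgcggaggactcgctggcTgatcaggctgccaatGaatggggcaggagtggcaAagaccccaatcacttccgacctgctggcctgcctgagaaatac
SAA2-201: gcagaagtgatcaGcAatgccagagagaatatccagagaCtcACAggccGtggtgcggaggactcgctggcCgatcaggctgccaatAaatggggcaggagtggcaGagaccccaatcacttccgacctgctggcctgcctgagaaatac
Over all 366 coding bases 11 differed, which is an identity of 97.0%, and the longest identical run was 186 bases. Over the whole GENCODE 29 transcripts, 453 of the 852 stretches of 31 bases in SAA1 (53.2%) also occurred in SAA2 or in the read-through gene SAA2-SAA4. The deposited tables also hold an SAA1 transcript that is not in GENCODE 29, so this share is not over all the transcripts the authors quantified. Values of SAA1 and SAA2 taken apart are therefore uncertain to the extent that the authors' estimation divided shared reads between them.

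Sequence before the RefSeq start site is shown for LCN2, which had the largest rise in MCF10Ca1a of the members detected in every library, and for WFDC2, which was abundant in MCF10AT1 alone. The windows hold the 250 bases before the RefSeq start site on GRCh38.p14 (LCN2 chr9:128149203-128149452, WFDC2 chr20:45469503-45469752, both on the plus strand), with motif matches in capitals. GENCODE 29 starts both genes further upstream, so the LCN2 window lies inside its GENCODE gene span and the WFDC2 window overlaps its start.
LCN2: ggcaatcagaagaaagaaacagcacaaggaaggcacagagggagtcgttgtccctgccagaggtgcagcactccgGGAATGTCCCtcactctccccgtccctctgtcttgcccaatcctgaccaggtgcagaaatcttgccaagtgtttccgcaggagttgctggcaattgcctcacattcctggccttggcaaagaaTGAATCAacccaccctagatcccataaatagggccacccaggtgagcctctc
WFDC2: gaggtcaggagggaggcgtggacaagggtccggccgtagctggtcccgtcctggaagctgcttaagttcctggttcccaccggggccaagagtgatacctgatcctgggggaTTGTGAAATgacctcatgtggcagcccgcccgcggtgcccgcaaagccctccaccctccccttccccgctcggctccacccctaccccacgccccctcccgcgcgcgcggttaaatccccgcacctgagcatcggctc
Both strands were searched for the NF-kappaB consensus, for AP-1 (TGANTCA), for a C/EBP motif (TTNNGNAAT) and for a STAT motif (TTCNNNGAA). The LCN2 window held an NF-kappaB match on the opposite strand, printed here as GGAATGTCCC, beginning 175 bases before the start site, and an AP-1 match, TGAATCA, beginning 52 bases before it. The WFDC2 window held a C/EBP match, TTGTGAAAT, beginning 138 bases before the start site. No motif overlapped another. These matches are common: of 35116 windows of the same length, 5.21% held the NF-kappaB consensus, 6.57% the AP-1 motif, 9.85% the C/EBP motif and 6.57% the STAT motif. Windows were found for 5 of the 9 members. Among the others searched, 1 of the 3 windows of LTF held a STAT match and those of PIGR and BPIFB1 held no match.

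Summed over the 9 genes, the level was 1074 ± 32.3 TPM (SD, n = 3) for MCF10A, 161 ± 6.50 for MCF10AT1 and 778 ± 14.4 for MCF10Ca1a. The summed level was lowest in MCF10AT1, and the 3 lines did not overlap. In these bulk samples, fewer cells expressing a gene and less RNA per cell cannot be told apart. SAA1 and SLPI supplied 88.3% of the sum in MCF10A, 79.3% in MCF10AT1 and 50.6% in MCF10Ca1a.

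**Figure D1:**
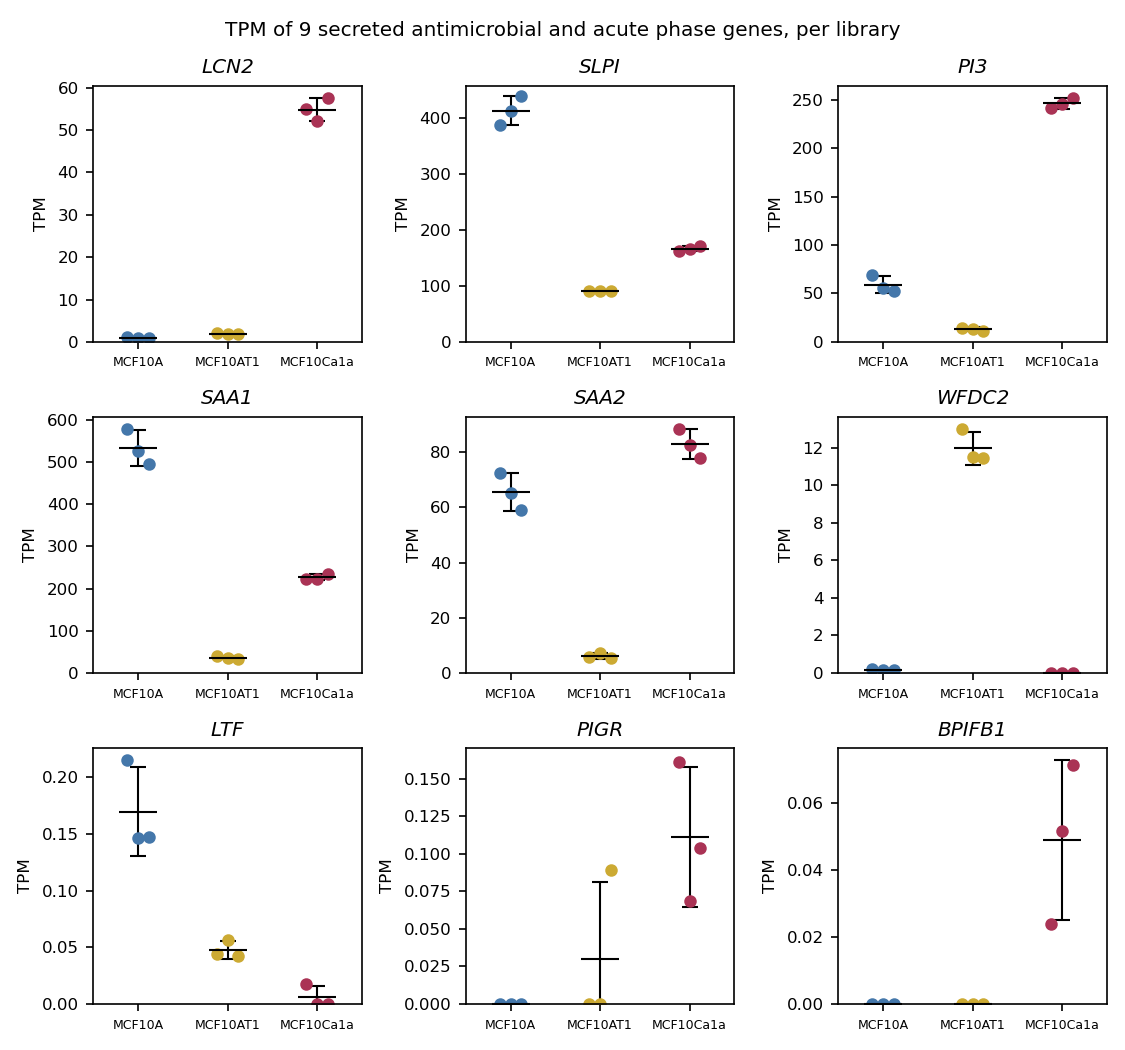
TPM of each of the 9 genes in every library (points), with the mean (long bar) and SD (whiskers) of the 3 libraries of each line; each panel has its own linear axis from 0. SAA1, SAA2, SLPI and PI3 sit lowest in MCF10AT1, LCN2 is high in MCF10Ca1a (52.0 to 57.5 TPM), and WFDC2 is high in MCF10AT1 (11.4 to 13 TPM).

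The order of the levels changed from line to line, as the plot of TPM by library shows. In MCF10A it ran SAA1, SLPI, SAA2, PI3, LCN2, LTF, WFDC2, and the ranges of SAA2 and PI3 overlapped, as did those of LTF and WFDC2. In MCF10AT1 SLPI led, followed by SAA1, PI3, WFDC2, SAA2, LCN2, LTF and PIGR, with overlapping ranges for PI3 and WFDC2 and for LTF and PIGR. In MCF10Ca1a PI3 led, followed by SAA1, SLPI, SAA2, LCN2, PIGR, BPIFB1 and LTF, and the ranges of PIGR and BPIFB1 overlapped. Genes listed at 0 in all libraries of a line are left out of its order.

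Comparisons between lines used edgeR's quasi-likelihood test over all 17910 genes that passed a filter on low counts, and a gene was called at a Benjamini-Hochberg adjusted p under 0.05. Of the 9 members 8 were tested, and BPIFB1 was not. WFDC2 passed the filter only through MCF10AT1, LTF only through MCF10A and PIGR only through MCF10Ca1a, so these genes had to differ between lines and their calls carry no support. In MCF10AT1 against MCF10A, 2 members were called higher and 5 lower, where 61.6% of all genes tested were called (29.8% higher and 31.8% lower). In MCF10Ca1a against MCF10A, 4 were called higher and 4 lower, where 80.9% of all genes were called (39.0% higher and 41.9% lower). With the deposited scaled counts 6 members were tested in that comparison, and 2 were called higher and 3 lower. In MCF10Ca1a against MCF10AT1, 6 were called higher and 2 lower, where 78.4% of all genes were called (38.0% higher and 40.3% lower). These counts include the genes whose calls carry no support. WFDC2 is among those higher and LTF among those lower in MCF10AT1 against MCF10A. In both comparisons of MCF10Ca1a, PIGR is among those higher, and WFDC2 and LTF are among those lower. With such backgrounds the number of members called is not particular to them, and the size and direction of each change, shown in the plot of fitted changes, follow. The 3 comparisons share libraries pairwise, so they are not independent of one another. The labels do not say that the 3 libraries of a line came from separate cultures, and p-values then measure only the spread between these libraries, which may be technical.

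**Figure D2:**
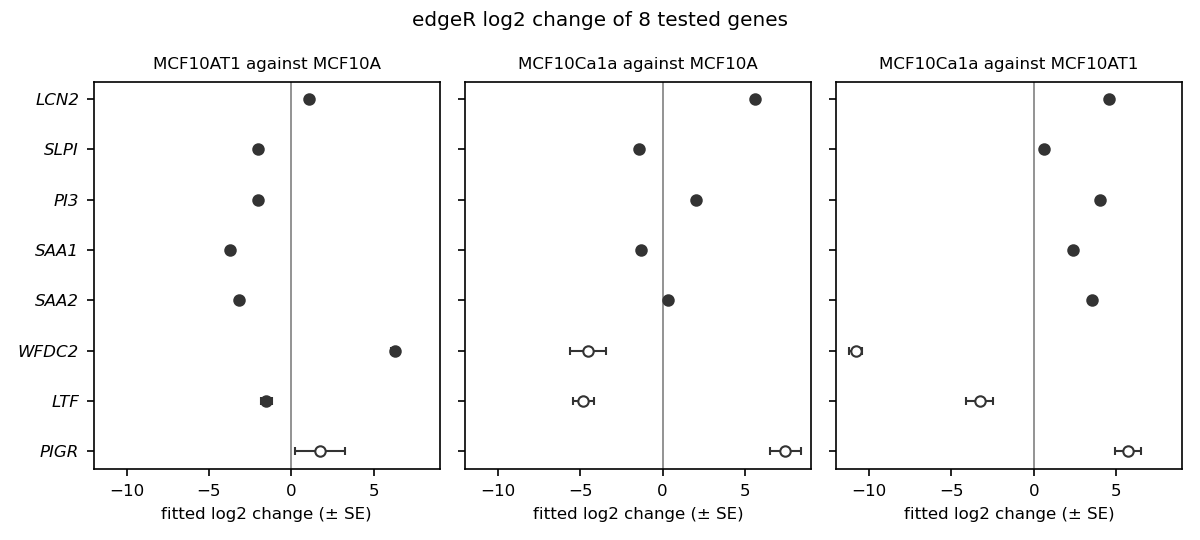
Fitted edgeR log2 change (points) with its standard error (whiskers) for the 8 tested members in the 3 comparisons; positive values are higher in the first line named. Open points mark genes at or under 3 counts in every library of at least one of the lines compared, whose fitted value depends on the model and is neither a fold nor a bound. LCN2 is higher in the first line named in all 3 comparisons, while SLPI and PI3 lie on opposite sides of 0 in MCF10Ca1a against MCF10A.

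LCN2 (ENSG00000148346.12, chr9:128149071-128153455) was low in MCF10A at 1.16, 0.927 and 0.905 TPM and in MCF10AT1 at 2.03, 1.91 and 1.78 TPM. In MCF10Ca1a it stood at 54.9, 52.0 and 57.5 TPM, on 929 to 1101 counts. The lines did not overlap, and every library of MCF10Ca1a was far above all others. The rise from MCF10A to MCF10Ca1a was 5.64 on the log2 scale (SE 0.0989, edgeR adjusted p = 9.4e-15), a fold of 49.8. From MCF10AT1 to MCF10Ca1a LCN2 rose by 4.57 (SE 0.0893, edgeR adjusted p = 6.19e-14). The difference between MCF10AT1 and MCF10A was smaller, at 1.07 (SE 0.128, edgeR adjusted p = 7.25e-06), and was lost when a change of at least 1 on the log2 scale was required (adjusted p = 0.831). The main transcript, LCN2-201, held 93.1% ± 6.60 of the gene's TPM in MCF10A, 93.2% ± 6.19 in MCF10AT1 and 81.9% ± 1.18 in MCF10Ca1a (SD, n = 3). LCN2-207, annotated as a processed transcript, held 7.20% ± 1.89 in MCF10Ca1a.

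The other iron-binding protein of the group, lactoferrin, was barely detected. LTF (chr3:46435645-46485234) was counted 20, 21 and 24 times for MCF10A, 7, 9 and 6 times for MCF10AT1, and 1, 0 and 0 times for MCF10Ca1a. The lines did not overlap, and LTF fell where LCN2 rose. Its mean level was 0.170 ± 0.0392 TPM in MCF10A (SD, n = 3). The fall from MCF10A to MCF10AT1 was 1.52 on the log2 scale (log2 change -1.52, SE 0.343, edgeR adjusted p = 0.00166), a call that was lost when a log2 change of 1 was required (edgeR glmTreat adjusted p = 0.180). MCF10Ca1a was at least 3.80-fold lower than MCF10A (edgeR adjusted p = 1.08e-05) and at least 1.31-fold lower than MCF10AT1 (edgeR adjusted p = 0.00184), with MCF10Ca1a set to 3 counts per library for these bounds. Unfiltered limma on log2(TPM + 1) lost the call against MCF10AT1 (adjusted p = 0.0886). LTF passed the count filter only through MCF10A and so had to differ, and its p-values carry no support.

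Against MCF10A, the pair of WAP-domain protease inhibitors, SLPI and PI3, fell together in MCF10AT1 and moved in opposite directions in MCF10Ca1a. Against MCF10AT1, both were higher in MCF10Ca1a. They are neighbours on chromosome 20: PI3 (chr20:45174876-45176544) lies 75.7 kb from SLPI (chr20:45252239-45254564). SLPI was at 388, 414 and 440.5 TPM in MCF10A and at 92.0, 91.0 and 91.3 in MCF10AT1, against 163, 166 and 172 in MCF10Ca1a. MCF10A was highest and MCF10AT1 lowest, with no overlap. SLPI fell by 2.05 on the log2 scale in MCF10AT1 (log2 change -2.05, SE 0.0766, edgeR adjusted p = 5.27e-11) and by 1.42 in MCF10Ca1a (log2 change -1.42, SE 0.0759, edgeR adjusted p = 5e-10), each against MCF10A. MCF10Ca1a exceeded MCF10AT1 by 0.63 (SE 0.077, edgeR adjusted p = 3.82e-06), a rise not called when a log2 change of 1 was required.

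PI3 was at 69.2, 55.7 and 52.4 TPM in MCF10A and at 14.6, 13.8 and 11.1 in MCF10AT1, against 241, 245 and 252 in MCF10Ca1a. Here MCF10Ca1a was highest and MCF10AT1 again lowest, with no overlap. PI3 fell in MCF10AT1 against MCF10A by nearly the same amount as SLPI (log2 change -2.04, SE 0.0914, edgeR adjusted p = 3.29e-10). In MCF10Ca1a it rose by 2.01 over MCF10A (SE 0.0781, edgeR adjusted p = 1.68e-11) and by 4.05 over MCF10AT1 (SE 0.0906, edgeR adjusted p = 1.86e-13). PI3 made up 12.5% ± 2.33 of the TPM of the pair in MCF10A, 12.6% ± 1.53 in MCF10AT1 and 59.7% ± 0.129 in MCF10Ca1a (SD, n = 3). The share in every MCF10Ca1a library lay above those of both other lines, whose shares overlapped. An exact permutation test of 3 libraries against 3 cannot go below a two-sided p of 0.1, so it can call no difference here. Both genes have a single transcript in the deposited tables.

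WFDC2 (chr20:45469706-45481532), 215 kb from SLPI, followed neither inhibitor. The MCF10A libraries had 4, 3 and 3 counts, those of MCF10AT1 had 291, 256 and 248, and those of MCF10Ca1a had 0 each, where a count of 0 allows up to 0.0838 to 0.0892 CPM (counts scaled to library size). The level in MCF10AT1 was 13, 11.5 and 11.4 TPM, well clear of both other lines. WFDC2 rose from MCF10A to MCF10AT1 by 6.28 on the log2 scale (SE 0.221, edgeR adjusted p = 3.79e-10), and it was at least 47.4-fold lower in MCF10Ca1a than in MCF10AT1 (edgeR adjusted p = 2.45e-10). WFDC2 passed the count filter only through MCF10AT1 and so had to differ, and its p-values carry no support. MCF10Ca1a was called lower than MCF10A (edgeR adjusted p = 0.00504), but at these counts no fold can be given, and unfiltered limma on log2(TPM + 1) lost that call (adjusted p = 0.0583). The protein-coding transcript WFDC2-204 held 93.1% ± 2.55 of the gene's TPM in MCF10AT1 (SD, n = 3).

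SAA1 was the most abundant member in MCF10A and the second in both other lines, while SAA2 ranked lower. SAA1 was at 579, 526 and 495 TPM in MCF10A and at 39.7, 35.3 and 33.3 in MCF10AT1, against 223, 222 and 235 in MCF10Ca1a. It was lowest in MCF10AT1 and intermediate in MCF10Ca1a, with no overlap. SAA1 fell in MCF10AT1 against MCF10A by 3.73 on the log2 scale (log2 change -3.73, SE 0.0605, edgeR adjusted p = 1.52e-14), a 13.3-fold difference. It was also lower in MCF10Ca1a than in MCF10A (log2 change -1.34, SE 0.0543, edgeR adjusted p = 2.71e-11), while MCF10Ca1a exceeded MCF10AT1 by 2.40 (SE 0.0591, edgeR adjusted p = 3.9e-13). SAA1-201 held 82.7% of the gene's TPM in MCF10A, 81.5% in MCF10AT1 and 79.9% in MCF10Ca1a.

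SAA2 was at 72.6, 65.2 and 59.1 TPM in MCF10A and at 5.93, 7.24 and 5.28 in MCF10AT1, against 88.6, 82.7 and 77.7 in MCF10Ca1a. It too was lowest in MCF10AT1, but MCF10Ca1a stood slightly above MCF10A. The fall in MCF10AT1 against MCF10A was 3.21 on the log2 scale (log2 change -3.21, SE 0.0861, edgeR adjusted p = 1.8e-12), and the rise from MCF10AT1 to MCF10Ca1a was 3.52 (SE 0.0874, edgeR adjusted p = 4.19e-13). Against MCF10A, SAA2 was higher in MCF10Ca1a by 0.31 (SE 0.0708, edgeR adjusted p = 0.00104), a call that was lost with the deposited length-scaled counts (0.18, adjusted p = 0.0757) and scaled counts (0.19, adjusted p = 0.0766), and when a log2 change of 1 was required. The sum of SAA1, SAA2 and SAA2-SAA4, most of which is SAA1, was lower in MCF10Ca1a than in MCF10A (log2 change -1.01, edgeR adjusted p = 3.5e-10). The fall of SAA2 in MCF10AT1 against MCF10A kept its direction and its call under every alternative that measured SAA2 itself.

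SAA2 made up 11.1%, 11.0% and 10.7% of the TPM of SAA1 and SAA2 in MCF10A and 13%, 17.0% and 13.7% in MCF10AT1, against 28.4%, 27.2% and 24.9% in MCF10Ca1a. The shares did not overlap between lines, although with 3 libraries against 3 no exact permutation test can call a difference. The plot of SAA1 and SAA2 levels and shares shows this separation. How much of this share depends on the division of shared reads was not tested. SAA2-201 held 84.3%, 84.3% and 80.5% of SAA2 TPM in MCF10A, MCF10AT1 and MCF10Ca1a.

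**Figure D3:**
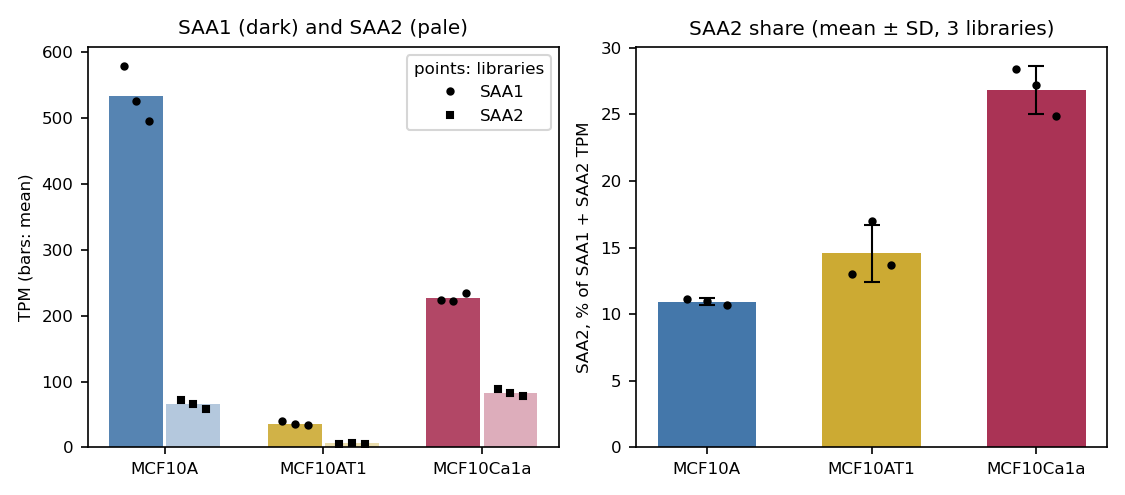
Left, TPM of SAA1 (dark bars, round points) and SAA2 (pale bars, square points), with bars at the mean and points for the 3 libraries of each line. Right, the share of SAA2 in the TPM of both genes (bars, mean; whiskers, SD; points, libraries), which is 10.9% ± 0.256 in MCF10A, 14.6% ± 2.15 in MCF10AT1 and 26.8% ± 1.80 in MCF10Ca1a. How far the division of shared reads sets these values was not tested.

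The remaining members were rare. PIGR (chr1:206928518-206946466) had 0 counts in all MCF10A libraries, 0, 0 and 1 in MCF10AT1, and 20, 8 and 13 in MCF10Ca1a. In counts MCF10Ca1a lay above both other lines, although at only 0.111 ± 0.0468 TPM (SD, n = 3). In TPM the MCF10AT1 library with 1 count (0.0889) fell inside the MCF10Ca1a range of 0.0686 to 0.161, where that count was assigned to PIGR-202, a processed transcript, and those of MCF10Ca1a to PIGR-201. It was at least 8.55-fold higher than MCF10A (edgeR adjusted p = 1.33e-05) and at least 8.39-fold higher than MCF10AT1 (edgeR adjusted p = 2.63e-05), bounds that set the lower line to 3 counts per library and hold for the unscaled counts only. PIGR passed the count filter only through MCF10Ca1a and so had to differ, and its p-values carry no support. Against MCF10AT1, length-scaled counts gave a smaller log2 change of 1.66, below that bound, and the call was lost (edgeR adjusted p = 0.165), as it was with unfiltered limma on log2(TPM + 1) (adjusted p = 0.0572), and MCF10AT1 did not pass the threshold against MCF10A (edgeR adjusted p = 0.351). BPIFB1 (chr20:33273480-33309878) had 1, 2 and 3 counts in MCF10Ca1a and 0 in every other library, at or under the 3 counts taken as the limit of detection, so no fold is given. Without the filter on low counts, edgeR gave adjusted p = 0.0159 against MCF10A and 0.0178 against MCF10AT1. Both lines were at the floor in each comparison, so these p-values carry no support.

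Calls were also counted among the genomic neighbours of the members. Of all genes tested, 29.8% were called higher and 31.8% lower in MCF10AT1 against MCF10A, 39.0% and 41.9% in MCF10Ca1a against MCF10A, and 38.0% and 40.3% in MCF10Ca1a against MCF10AT1. Of 34 tested genes within 500 kb of LCN2, 21 were higher and 3 lower in MCF10AT1 against MCF10A (median log2 change 0.42), the direction of LCN2 there, and 16 were higher and 10 lower in MCF10Ca1a against MCF10A (median 0.18). In MCF10Ca1a against MCF10AT1, where LCN2 rose, 12 of them were higher and 16 lower (median -0.11). Around PI3, 9 of 14 were higher and 2 lower in MCF10Ca1a against MCF10A (median 0.60), the direction of PI3, and 4 were higher and 3 lower in MCF10AT1 against MCF10A (median 0.018), where PI3 fell. In MCF10Ca1a against MCF10AT1, where PI3 and SLPI both rose, 8 of the 14 around PI3 were higher and 2 lower (median 0.76), and 6 of 13 around SLPI were higher and 2 lower (median 0.56). The windows of PI3, SLPI and WFDC2 overlap and share genes. Around SLPI, which fell in MCF10Ca1a against MCF10A, 7 of 13 were higher and 2 lower there (median 0.39). Around WFDC2, also called lower in that comparison, 14 of 21 were higher and 3 lower (median 0.62). In MCF10AT1 against MCF10A, where WFDC2 rose, 3 of the same 21 were higher and 9 lower (median -0.29). Around SAA1 and SAA2, 7 of 15 were higher and 5 lower in the same comparison, with a median of 0.13. In MCF10Ca1a against MCF10AT1, where SAA1 and SAA2 rose, 6 of the 15 were higher and 6 lower (median -0.087). Around WFDC2, which fell there, 13 of 21 were higher and 2 lower (median 0.78). Around PIGR, which rose there, 10 of 14 were higher and 3 lower (median 0.87). Other comparisons of these windows, and the windows of LTF and BPIFB1, are left out. Among 27 other genes of the 20q13 cluster that holds PI3, SLPI and WFDC2, only 9 were tested, and in MCF10Ca1a against MCF10A 5 were higher and 3 lower (median 0.22, against -0.046 over all genes tested). The same genes gave 2 higher and 4 lower in MCF10AT1 against MCF10A (median -0.13) and 5 higher and 2 lower in MCF10Ca1a against MCF10AT1 (median 0.36). In MCF10Ca1a against MCF10A, SDC4, a syndecan next to the WAP genes, rose most of these 9 (log2 change 1.88, SE 0.0702, edgeR adjusted p = 1.16e-11), followed by PIGT and ACOT8, and DBNDD2, UBE2C and SNX21 were called lower.

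Genes whose pattern over the 9 libraries was most like that of LCN2 were sought among 12271 genes with a mean of at least 100 counts in their highest line, by the root mean square difference of centred log2(CPM + 0.1). The closest were SYCP2 (0.203), S100P (0.208), BEX2 (0.210), PLIN1 (0.289) and TRPV4 (0.301). BEX2 was listed at 0 TPM in MCF10A and PLIN1 was at 0.0300 TPM, and their fitted rises in MCF10Ca1a over MCF10A exceeded that of LCN2 (PLIN1 7.11 against 5.64 on the log2 scale), so their closeness depends on the 0.1 CPM added. S100P, a calcium-binding protein of the S100 family, was the most abundant of them, at 53.2 TPM in MCF10A, 103 in MCF10AT1 and 2079 in MCF10Ca1a. For SLPI the closest were SFXN5 (0.148), INAVA (0.161), TMEM132A (0.197), MYH15 (0.199) and SPHK1 (0.201). This likeness is a description over 9 libraries in 3 lines and says nothing about shared control.

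Of 32 other antimicrobial genes 10 were tested, and MCF10AT1 against MCF10A gave 2 higher and 6 lower (median log2 change -0.95, against -0.0038 over all genes tested). In MCF10Ca1a against MCF10A, 3 were higher and 5 lower (median -1.07), and in MCF10Ca1a against MCF10AT1, 4 were higher and 4 lower (median 0.047). Of all genes tested, 61.6% were called in MCF10AT1 against MCF10A (29.8% higher and 31.8% lower). The share was 80.9% in MCF10Ca1a against MCF10A (39.0% and 41.9%) and 78.4% in MCF10Ca1a against MCF10AT1 (38.0% and 40.3%). Counts of this list and of those that follow are read beside these shares and are not taken as particular to any list. Some list genes, FGG and MMP9 among them, passed the filter through a single line and so had to differ. S100A8 and S100A9, the subunits of calprotectin, which sequesters zinc and manganese, fell from 358 and 647 TPM in MCF10A to 5.59 and 24.3 in MCF10AT1 and 7.76 and 77.6 in MCF10Ca1a. In MCF10Ca1a against MCF10A, S100A8 changed by -5.59 on the log2 scale (SE 0.166, edgeR adjusted p = 1.2e-12) and S100A9 by -3.16 (SE 0.0954, edgeR adjusted p = 1.38e-12), and CXCL14 was also lower. DEFB1, an epithelial beta-defensin, rose from 0.326 TPM in MCF10A to 35.3 in MCF10AT1 and 38.3 in MCF10Ca1a. CCL20, a chemokine with antimicrobial activity, was at 65.2, 40.0 and 613 TPM and rose by 3.29 in MCF10Ca1a over MCF10A (SE 0.0828, edgeR adjusted p = 2.53e-13). ADM, adrenomedullin, was higher there as well.

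Of 30 other acute phase genes 14 were tested. In MCF10AT1 against MCF10A, 3 were higher and 8 lower (median -0.65), in MCF10Ca1a against MCF10A 4 were higher and 5 lower (median -0.00065), and in MCF10Ca1a against MCF10AT1 7 were higher and 3 lower (median 0.61). Over all genes tested, 29.8% were higher and 31.8% lower in the first comparison, 39.0% and 41.9% in the second, and 38.0% and 40.3% in the third. Without the filter on low counts 27 acute phase genes were tested. In MCF10Ca1a, 9 were then higher and 7 lower against MCF10A, and 13 higher and 4 lower against MCF10AT1. The genes so added were near the floor, such as ORM2 (mean counts 0.333 in MCF10A and 5.67 in MCF10Ca1a). No share over all genes is given for that fit, so the split is not read as a trait of the list. C3, the central complement component, was at 144, 41.9 and 355 TPM in MCF10A, MCF10AT1 and MCF10Ca1a, lowest in MCF10AT1 as the SAA genes were. It rose by 1.17 on the log2 scale in MCF10Ca1a over MCF10A (SE 0.0939, edgeR adjusted p = 4.03e-08). SERPINA3, an acute phase protease inhibitor, was at 79.3, 158 and 329 TPM, and FGG and CP were also higher in MCF10Ca1a, FGG by at least 55.9-fold, although it passed the filter only through MCF10Ca1a and so had to differ. VNN1, PTX3 and C1R were lower in MCF10Ca1a than in MCF10A, VNN1 most of all (log2 change -6.16, SE 0.254, edgeR adjusted p = 3e-11). SERPINA1, the inhibitor of neutrophil elastase, stood at 69.3, 48.1 and 51.5 TPM.

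Cytokine genes known to induce or accompany these responses were examined next, and the plot of calls by list shows their counts beside those of the other lists. Of 14, 8 were tested, with 4 higher and 3 lower in MCF10AT1 against MCF10A (median 0.63), 5 higher and 2 lower in MCF10Ca1a than in MCF10A (median 1.14) and 6 higher and 2 lower in MCF10Ca1a than in MCF10AT1 (median 2.25). IL1B, which encodes interleukin 1 beta, was at 36.1, 9.24 and 81.9 TPM in MCF10A, MCF10AT1 and MCF10Ca1a. IL6, named here after its values were seen, was highest in MCF10AT1, at 0.891, 4.60 and 2.37 TPM in the same order. It rose by 2.68 on the log2 scale in MCF10AT1 over MCF10A (SE 0.245, edgeR adjusted p = 4.81e-07). The part of interleukin 1 or interleukin 6 in the levels of SAA1 and SAA2 was not tested. IL1A was at 115, 42.6 and 131 TPM, and its difference between MCF10Ca1a and MCF10A missed the threshold (log2 change 0.07, SE 0.0625, edgeR adjusted p = 0.33). CSF3, the granulocyte growth factor, fell from 149 TPM in MCF10A to 0.291 in MCF10AT1 and stood at 11.6 in MCF10Ca1a. LIF, a cytokine of the interleukin 6 family, rose at each step, at 1.61, 8.89 and 31.4 TPM. CSF2 and IL11 were higher in MCF10Ca1a than in MCF10A, and IL1RN, the interleukin 1 receptor antagonist, was lower.

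All 42 genes of the receptor and signalling list were tested. In MCF10AT1 against MCF10A, 12 were higher and 19 lower (median -0.083), and in MCF10Ca1a against MCF10A, 20 were higher and 15 lower (median 0.024). MCF10Ca1a against MCF10AT1 gave 23 higher and 13 lower (median 0.35). TLR4, the receptor for bacterial lipopolysaccharide, rose from 0.0668 TPM in MCF10A to 10.9 in MCF10AT1 and 6.10 in MCF10Ca1a. ELF3, an epithelial transcription factor, was at 0.596, 6.10 and 28.5 TPM and rose by 5.05 on the log2 scale in MCF10Ca1a over MCF10A (SE 0.0872, edgeR adjusted p = 8.11e-15). SOCS3, a feedback inhibitor of cytokine signalling, was at 1.17, 3.72 and 18.2 TPM. NFKBIA, the inhibitor and target of NF-kappaB, was at 105, 46.1 and 85.5 TPM, lowest in MCF10AT1. CEBPB was at 124, 106 and 171 TPM. FKBP5, a target of the glucocorticoid receptor, was at 218, 211 and 70.4 TPM with hydrocortisone in all media. TSC22D3, another such target, named here after its values were seen, was at 24.1, 60.1 and 42.0 TPM, and rose in MCF10Ca1a over MCF10A (log2 change 0.83, SE 0.0573, edgeR adjusted p = 7.48e-09). IL22RA1, TLR3 and CEBPA were called lower in MCF10Ca1a than in MCF10A.

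Among 16 proteases and binding partners of the members, 8 were tested, with 2 higher and 6 lower in MCF10Ca1a than in MCF10A (median -0.53). Both other comparisons gave 3 higher and 4 lower (median -0.12 in each). MMP9, the gelatinase that lipocalin 2 binds, was at 7.73 TPM in MCF10A, 0.00466 in MCF10AT1 and 0.0549 in MCF10Ca1a, highest in the line where LCN2 was lowest. It was at least 321-fold lower in MCF10AT1 than in MCF10A, but it passed the filter on low counts only through MCF10A and so had to differ. KLK7, a kallikrein, was at least 17.7-fold lower in MCF10Ca1a than in MCF10A, and LRP1 was also lower. GRN, whose progranulin product SLPI protects from elastase, was higher in MCF10Ca1a (log2 change 1.01, SE 0.0873, edgeR adjusted p = 8.99e-08), and so was LRP2, a receptor for lipocalin 2, although at 0.0406 TPM. ANXA2 and CTSB were lower there, by less than 1 on the log2 scale.

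Of 29 genes of secretory and luminal mammary epithelium 19 were tested, with 10 higher and 5 lower in MCF10Ca1a than in MCF10A (median 1.24). MCF10AT1 against MCF10A gave 10 higher and 6 lower (median 0.49), and MCF10Ca1a against MCF10AT1 gave 11 higher and 7 lower (median 0.72). KRT23 was at 0.0591, 0.561 and 25.9 TPM in MCF10A, MCF10AT1 and MCF10Ca1a, the largest rise of the list in MCF10Ca1a over MCF10A. CLDN4, a tight junction protein, was at 1.09, 50.0 and 156 TPM, and KRT19 was higher in MCF10Ca1a too. KRT8 and KRT18 were higher in MCF10Ca1a than in MCF10A, while KRT7 was not called (log2 change -0.03, SE 0.0639, edgeR adjusted p = 0.661). MUC1, the membrane mucin, was at 37.1, 52.9 and 1.42 TPM, and CD14 and CEL were lower in MCF10Ca1a as well.

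**Figure D4:**
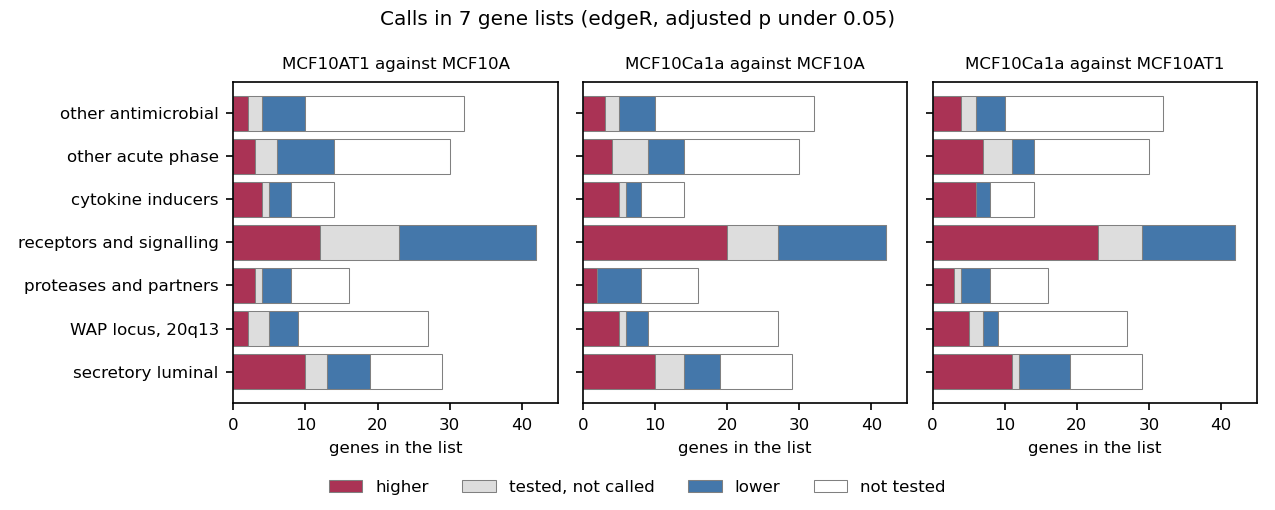
Number of genes in each of 7 lists called higher (red), called lower (blue), tested but not called (grey) or not tested (white) in each comparison by edgeR at an adjusted p under 0.05. In MCF10Ca1a against MCF10AT1, 6 of 8 tested cytokine genes are higher; 38.0% of all genes tested are called higher in that comparison.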

How the data were processed

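Stranded polyadenylated RNA libraries of 9 samples, per the labels' protocols, were quantified by the authors with Salmon against hg38, per the submitters' processing notes, which give no version. The authors deposited estimated counts per gene, length-scaled and scaled versions of those estimated counts, TPM per gene, and estimated counts and TPM per transcript. The annotation is not given in the sources used here. Positions and coding sequences came from GENCODE 29 on GRCh38, to which 58227 of 62666 genes matched, and upstream windows from RefSeq on GRCh38.p14.

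Deposited estimated counts were rounded and kept by filterByExpr (minimum count 10, minimum total 15). edgeR 4.0.16 in R 4.3.3 fitted all 9 libraries with TMM normalisation (glmQLFit, glmQLFTest), and p-values were adjusted over all genes tested. Standard errors came from the log2 change and its F statistic. A line with at most 3 counts in each of its libraries was taken as at its floor, a limit for counting error alone, as amplified reads carrying no molecular identifier are not separate molecules.

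Depth was 32.9 to 69.5 M counts per library. The alternatives were DESeq2 1.42.0 size factors and its Wald test, no filter, both scaled count tables, a replicate block, limma 3.58.1 on log2(TPM + 1) with and without a filter and on log2(TPM + 0.1), only the lines compared, glmTreat at a log2 change of 1, summed SAA genes, and each library left out. The rule for naming list genes took, per list, the 3 largest rises and the 3 largest falls among genes called in MCF10Ca1a against MCF10A and the 3 highest by mean TPM. The members and lists were chosen with earlier results of these data known.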

Additional observations from a re-analysis of the deposited data

How the results depend on the processing

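Over 12 alternatives and 9 fits with a library left out, 472 member results kept their side of the threshold without a change of sign, 10 lost their call and 1 had the opposite sign. That 1 set the sum of the SAA genes, most of which is SAA1, in place of SAA2 in MCF10Ca1a against MCF10A (log2 change -1.01) and is no estimate of SAA2, whose own value lay between 0.18 and 0.36 in every other fit. The 472 also include fits where this sum stood in for SAA1 or SAA2. They include PIGR in MCF10AT1 against MCF10A too, which was not called and whose log2 change fell to 0 with a library left out. The number of members called in that comparison fell from 8 to 5 with the deposited scaled counts, where only 6 members were tested. Leaving out each library in turn gave 7 to 7 members in MCF10AT1 against MCF10A and 8 to 8 in each of the other comparisons. Replicate numbers did not pair the libraries (correlation of deviations -0.060 to 0.045 for 9 pairs with the same number), and a replicate block left 7, 8 and 8 members called. Requiring a log2 change of 1 by glmTreat ended the calls of LCN2 and LTF in MCF10AT1 against MCF10A, SLPI in MCF10Ca1a against MCF10AT1 and SAA2 in MCF10Ca1a against MCF10A, and the length-scaled and scaled counts also ended that of SAA2. Length-scaled counts ended the call of PIGR in MCF10Ca1a against MCF10AT1. On log2(TPM + 1) without a filter, limma lost WFDC2 in MCF10Ca1a against MCF10A (adjusted p = 0.0583), and LTF (0.0886) and PIGR (0.0572) in MCF10Ca1a against MCF10AT1. Of the list counts, 17 moved by over 1.5 times, 14 of them under glmTreat. In MCF10AT1 against MCF10A that setting lowered the genes called from 8 to 5 (antimicrobial), 11 to 5 (acute phase), 31 to 9 (receptors and signalling), 7 to 3 (proteases and partners), 6 to 0 (20q13, with 0 also at an unadjusted p under 0.05 by glmTreat) and 16 to 6 (secretory luminal). In MCF10Ca1a against MCF10A it lowered them from 35 to 13 (receptors and signalling), 8 to 3 (proteases and partners) and 8 to 3 (20q13), and in MCF10Ca1a against MCF10AT1 from 8 to 4 (antimicrobial), 36 to 15 (receptors and signalling), 7 to 4 (proteases and partners), 7 to 2 (20q13) and 18 to 10 (secretory luminal). Without the count filter the acute phase genes called rose from 9 to 16 in MCF10Ca1a against MCF10A and from 10 to 17 against MCF10AT1, and with unfiltered limma the antimicrobial genes called rose from 8 to 13 in MCF10Ca1a against MCF10A. The acute phase genes added without the filter were near the floor. Depth limits LTF, PIGR, BPIFB1 and the low values of WFDC2, all near the floor of 3 counts, and MCF10Ca1a had the lowest depth of the 3 lines.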
